A study of Mus musculus with 35 samples.

Results

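The genes described here encode major proteins of whey and of the membrane that wraps secreted milk fat: Wap, Ltf, Btn1a1, Xdh, Plin2, Mfge8, Muc1 and Muc15. They were chosen by symbol. All 8 were found, each through a single probe set with no other gene assigned to it, among 19937 genes measured by array. They were followed across 35 samples of sorted mouse mammary cells, 17 from parous mice and 18 from age-matched virgin (nulliparous) mice. Each sample came from the 4th mammary glands of 5 mice pooled before sorting. The parous mice were mated at an age of 42 days and completed a pregnancy, with 21 days set aside for lactation and 40 for involution, in which the weaned gland regresses. Samples of a group are labelled as biological replicates. No strain or age at collection is given in the sources used here, and no transgene, deletion or drug is named for any group. The sorted subpopulations were stromal cells, epithelial cells as a whole (total epithelial), luminal CD24+High cells divided into Sca1- and Sca1+, and basal CD24+Low Sca1- cells divided into CD49fLow and CD49fHigh. Below, the luminal fractions are called luminal Sca1-negative and luminal Sca1-positive, and the basal ones are called basal CD49f-low and basal CD49f-high. There were 3 samples in each of the 12 groups but one: the parous group of basal CD49f-high cells had 2, the third having hybridized poorly. Basal CD49f-high samples held 2000 cells and all others 10000, and their RNA was amplified before hybridization.

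Milk is secreted by luminal alveolar cells under the control of prolactin, which acts through its receptor, the kinase JAK2 and the transcription factor STAT5, together with glucocorticoid. Soluble whey proteins leave the cell by exocytosis. They include whey acidic protein (Wap), a small protease-inhibitor-like protein of rodent milk, and lactoferrin (Ltf), an iron-binding antimicrobial protein of the transferrin family that is also known to be abundant in the resting and involuting gland and in neutrophil granules. Milk fat leaves by another route: a lipid droplet coated with perilipin 2 (Plin2) reaches the apical membrane, where butyrophilin (Btn1a1) and xanthine dehydrogenase (Xdh), an enzyme of purine breakdown that serves a structural role here, help to envelop it. The released globule also carries Mfge8, a secreted protein that bridges phosphatidylserine and integrins and helps phagocytes to clear dying cells, and the transmembrane mucins Muc1 and Muc15. Plin2, Xdh and Mfge8 are made by many cell types besides the milk-secreting cell.

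Upstream sequences were printed for Ltf, whose level differed most between parous and nulliparous cells, for Wap, the classical hormone-dependent whey gene, and for Muc1, whose pattern over the sorted cells was among the sharpest. They are the 250 bases before the transcription start that RefSeq gives in build GRCm38.p6, 5′ to 3′ on the strand of the gene. The Ltf sequence is chr9:111019042-111019291 on the plus strand, the Wap sequence chr11:6638650-6638899 on the minus strand, and the Muc1 sequence chr3:89228806-89229055 on the plus strand. The last 5 bases of the Wap window lie inside the annotated span of that gene. Capitals mark every match to the 7 motifs searched.
Ltf: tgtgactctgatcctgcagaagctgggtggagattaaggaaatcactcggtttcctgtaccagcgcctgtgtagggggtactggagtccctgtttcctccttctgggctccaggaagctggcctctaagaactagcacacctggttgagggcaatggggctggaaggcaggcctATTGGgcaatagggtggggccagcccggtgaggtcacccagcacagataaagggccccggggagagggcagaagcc
Wap: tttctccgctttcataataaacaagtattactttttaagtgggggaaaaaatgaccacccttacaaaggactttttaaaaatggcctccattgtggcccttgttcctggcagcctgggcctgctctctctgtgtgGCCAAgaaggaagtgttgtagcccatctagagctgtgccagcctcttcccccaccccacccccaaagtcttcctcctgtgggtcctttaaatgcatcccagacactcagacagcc
Muc1: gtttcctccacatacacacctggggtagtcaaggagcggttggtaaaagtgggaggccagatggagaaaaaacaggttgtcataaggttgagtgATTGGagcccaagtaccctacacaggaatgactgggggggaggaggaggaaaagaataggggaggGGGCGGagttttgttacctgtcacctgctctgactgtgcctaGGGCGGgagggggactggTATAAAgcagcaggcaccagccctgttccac

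Counted back from the start site, the Ltf window held a CCAAT box (CCAAT) on the minus strand at -76 to -72. The Wap window held a nuclear factor 1 half-site (TTGGC) on the minus strand at -115 to -111. The Muc1 window held a TATA box (TATAAA) at -31 to -26, a CCAAT box on the minus strand at -156 to -152 and GC boxes (GGGCGG) at -91 to -86 and -49 to -44. Among 32851 mouse promoter windows of the same length, 33.8% held CCAAT, 41.5% TTGGC, 12.4% TATAAA and 32.7% GGGCGG on either strand. The other motifs searched were TTCNNNGAA, the core bound by STAT5 (7.02% of windows), the E-box CACGTG (6.02%) and the glucocorticoid receptor half-site AGAACA (16.1%). None of these 3 strings lay in the windows of Ltf, Wap or Muc1, nor in those of Mfge8 and Plin2, the other members that the promoter table lists. Sites outside the windows, and sites that differ from these strings, were not searched for. TTGGC and the reverse complement of CCAAT can share bases, and no shared match occurred here.

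Fibroblast, basal and pan-luminal marker genes followed the sort labels. The summed log2 level of 10 fibroblast markers was 14.18 to 14.31 in stromal samples and at most 11.9 elsewhere. The sum of 10 basal markers was 13.9 to 14.52 in basal samples and at most 10.95 in luminal ones. The sum of 9 pan-luminal markers was 13.95 to 14.36 in luminal samples, 11.64 to 12.63 in basal ones and 10.11 to 12.54 in stromal ones. The sum of 9 macrophage markers was higher in luminal Sca1-negative samples, 10.56 to 10.90, than in stromal ones, 9.12 to 9.79. That list shares Cd14 with the luminal progenitor markers. Over all genes, the number called for parity ran from 89 in total epithelial cells to 1806 in basal CD49f-high cells, the subpopulation with the fewest sorted cells and the missing sample. All values are log2 expression as deposited, and a difference of 1 log2 unit is a doubling. A gene is called where limma's Benjamini-Hochberg adjusted p over all genes is under 0.05.

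Most of the 8 genes peaked in luminal Sca1-negative cells, whose summed level of 7 luminal progenitor markers was 12.19 to 12.67, against 9.58 to 10.20 in luminal Sca1-positive cells. All 8 were lower in luminal Sca1-positive than in luminal Sca1-negative cells, a contrast in which 16.1% of all genes were called and 7.11% were called lower. The Sca1-positive minus Sca1-negative differences, averaged over both histories, were -3.20 for Muc15 (SE 0.32), -3.17 for Ltf (SE 0.31), -2.37 for Btn1a1 (SE 0.13) and -2.36 for Xdh (SE 0.15). Muc1 was lower by 2.31 (SE 0.14), Plin2 by 2.16 (SE 0.13) and Mfge8 by 2.06 (SE 0.16). Wap had the smallest difference of the set at -0.44 (SE 0.11, adjusted p = 0.00288). The largest of these differences is a 9.16-fold lower Muc15 level, and that of Wap a 1.36-fold lower level. Wap lay near the median of all values, 6.0, outside luminal Sca1-negative cells and was not shown to be above background there. The median over the 8 genes was -2.33, against -0.01 over all genes.

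Against stromal cells the members parted. In the comparison of luminal Sca1-negative with stromal cells 32.6% of all genes were called. Luminal Sca1-negative cells exceeded stromal cells by 4.32 for Muc15 (SE 0.32), 3.08 for Ltf (SE 0.31) and 2.73 for Btn1a1 (SE 0.13). Muc1 and Mfge8 were higher there by 2.55 (SE 0.14) and 1.67 (SE 0.16). Xdh and Plin2 departed from this pattern. Xdh was higher in stromal than in luminal Sca1-negative cells by 0.76 (SE 0.15, adjusted p = 2.1e-04), with stromal samples between 8.75 and 9.11 (median 8.90, n = 6). Plin2 was 10.18 in stromal and 10.43 in luminal Sca1-negative cells on average, a difference of 0.24 (SE 0.13, adjusted p = 0.18) that did not pass. In the contrast of stromal with total epithelial cells, 7 of the 8 genes were called, 2 higher in stroma (Xdh by 1.48 and Plin2 by 1.14) and 5 lower, against 29.2% of all genes (13.6% higher and 15.6% lower). Wap did not differ beyond its error there (-0.05, SE 0.11).

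The steps given next compare neighbouring subpopulations in each order of levels. Subpopulations further apart can differ where no single step between them passed. Mean Ltf levels descended from 10.77 in luminal Sca1-negative to 9.44 in total epithelial, 8.57 in basal CD49f-low, 8.20 in basal CD49f-high, 7.68 in stromal and 7.59 in luminal Sca1-positive cells. Only the first of these 5 steps passed (1.33, SE 0.31, adjusted p = 0.00361). Across the lower steps, total epithelial cells exceeded luminal Sca1-positive cells by 1.84 (SE 0.31, adjusted p = 4.3e-05). Btn1a1 ran from 8.27 in luminal Sca1-negative and 6.76 in total epithelial cells to 5.90, 5.78, 5.77 and 5.54 in luminal Sca1-positive, basal CD49f-low, basal CD49f-high and stromal cells. Its first and second steps passed (1.51 and 0.86, SE 0.13 each) and the 3 lower ones did not. Muc1 had the same order of subpopulations and the same 2 steps that passed, 1.74 and 0.57 (SE 0.14 each).

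Muc15 fell from 9.77 in luminal Sca1-negative to 8.10 in total epithelial cells and then to between 6.85 and 6.49 in basal CD49f-low, luminal Sca1-positive and basal CD49f-high cells, which did not differ from one another beyond their spread. Its stromal mean of 5.45 was lower again by 1.04 (SE 0.34, adjusted p = 0.0199). Mfge8 stood at 10.96 in luminal Sca1-negative cells and 9.89 in total epithelial cells, and none of its 4 lower steps, down to 8.90 in luminal Sca1-positive cells, passed. Across those steps total epithelial cells exceeded luminal Sca1-positive cells by 0.99 (SE 0.16, adjusted p = 2.9e-05). Luminal Sca1-positive cells were also below basal CD49f-high (-0.74, SE 0.17) and basal CD49f-low cells (-0.55, SE 0.16), both called. Xdh descended from 8.92 in stromal and 8.15 in luminal Sca1-negative cells to 7.44, 7.34 and 7.23 in total epithelial, basal CD49f-low and basal CD49f-high cells, which did not separate. It was then lower by 1.44 (SE 0.16, adjusted p = 3.2e-08) in luminal Sca1-positive cells, at 5.79. Plin2 was 9.04 in total epithelial cells and 8.52, 8.39 and 8.27 in basal CD49f-high, basal CD49f-low and luminal Sca1-positive cells, of which the last 3 did not separate. Wap was 6.49 in luminal Sca1-negative cells and 5.92 to 6.05 in all other subpopulations, with no step among those that passed.

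Between the basal and luminal pairs, each pair averaged, all 8 genes were called, against 35.0% of all genes (15.5% higher and 19.5% lower in basal cells). Of these, 7 were lower in basal cells, from Muc15 (-1.51, SE 0.23) and Btn1a1 (-1.31, SE 0.10) to Wap (-0.30, SE 0.08). Xdh was higher in basal cells by 0.31 (SE 0.11, adjusted p = 0.0289), and its luminal fractions lay on either side of basal CD49f-low cells, luminal Sca1-negative cells 0.81 above (SE 0.15) and luminal Sca1-positive cells 1.55 below (SE 0.15). None of the 8 was called between basal CD49f-high and basal CD49f-low cells, where 3.54% of all genes were. All 8 unadjusted p-values in that limma contrast were above 0.05, with differences from -0.36 for Ltf and Muc15 to 0.20 for Mfge8.

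**Figure D1:**
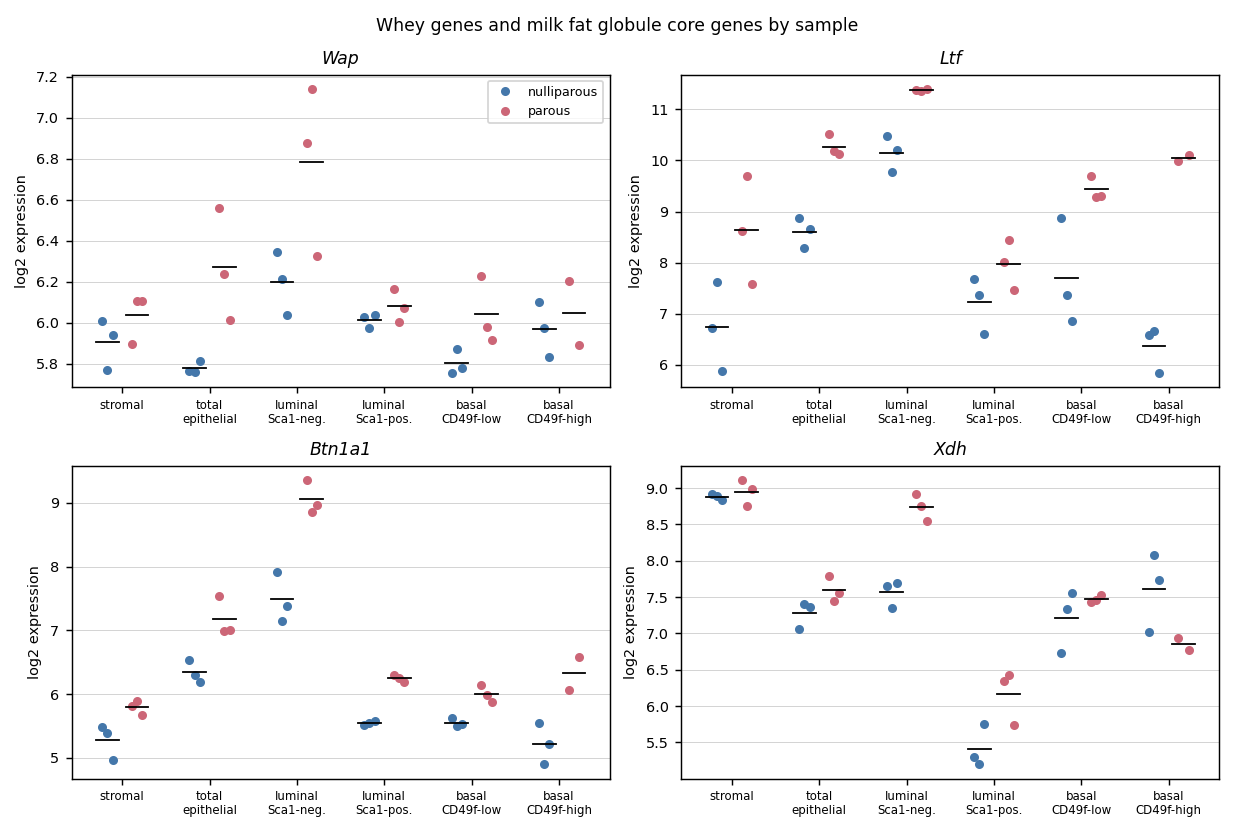
Log2 expression of Wap, Ltf, Btn1a1 and Xdh (y axes, each on its own scale) in each sample of the 6 sorted subpopulations (x axes). Points are samples, blue for nulliparous and red for parous, and black bars are group means. Btn1a1 lay higher in every parous sample than in every nulliparous sample of the same subpopulation, and Ltf in basal CD49f-high cells had the widest gap, 9.98 and 10.11 against 5.84 to 6.66.

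**Figure D2:**
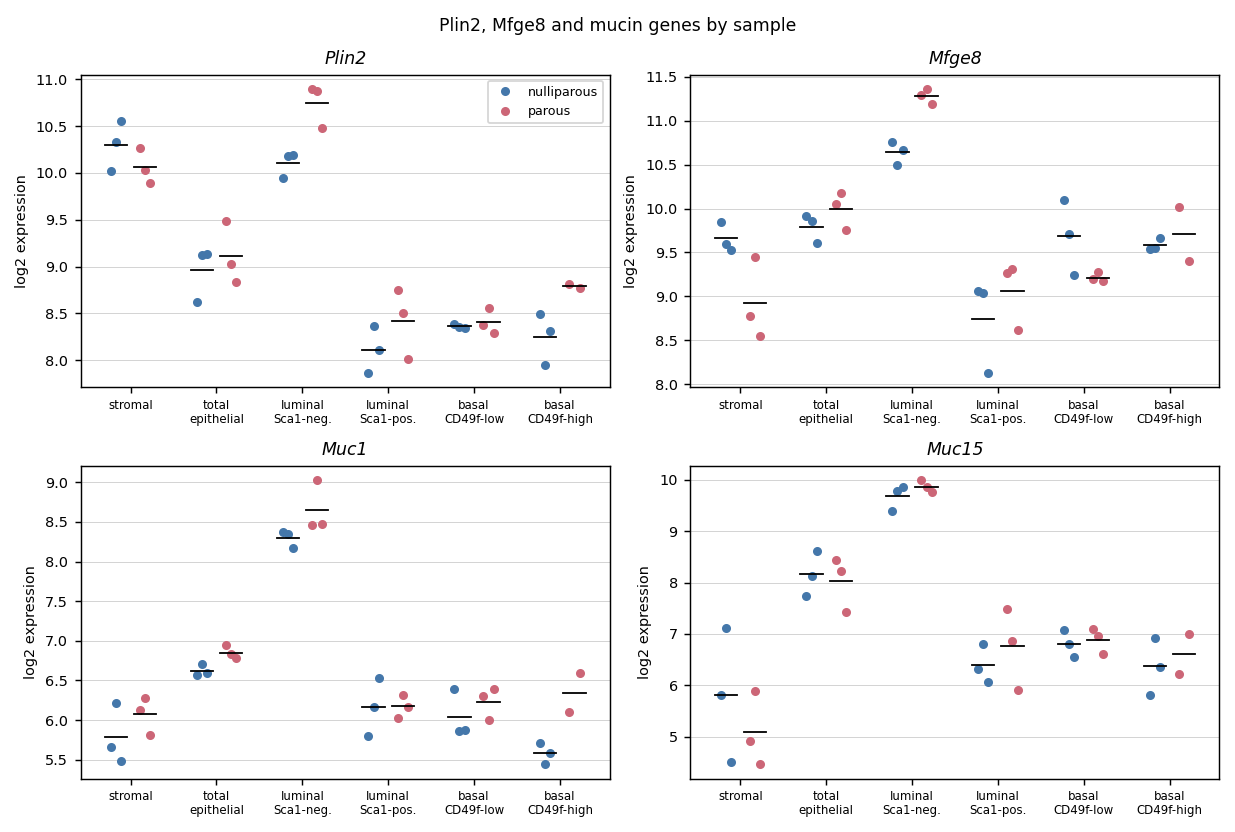
Log2 expression of Plin2, Mfge8, Muc1 and Muc15 (y axes, each on its own scale) in each sample of the 6 sorted subpopulations (x axes). Points are samples, blue for nulliparous and red for parous, and black bars are group means. Luminal Sca1-negative samples were the highest for Mfge8, Muc1 and Muc15, whereas the stromal samples of Plin2, 9.90 to 10.56, overlapped them.

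The main question of the study's design was what remained different in each sorted population after a completed pregnancy and involution. For the 8 genes the answer differed by gene. In luminal Sca1-negative cells 2 of 8 rose with parity, Btn1a1 and Xdh, where 1.0% of all genes were called and 0.662% rose. In basal CD49f-high cells 3 rose (Ltf, Btn1a1 and Muc1) and Xdh fell, where 9.06% of all genes were called, 4.01% higher and 5.05% lower. In stromal cells Ltf alone rose, against 0.597% of all genes called and 0.105% called higher. Btn1a1 alone rose in total epithelial cells, against 0.446% and 0.166%. No member was called in luminal Sca1-positive cells (0.607% of all genes called) or in basal CD49f-low cells (0.968%). With limma's unadjusted p under 0.05, 2 members stood out in each of these, Btn1a1 and Xdh in the former and Ltf and Btn1a1 in the latter. The median difference over the 8 genes was 0.64 in luminal Sca1-negative cells, with all 8 above 0, against -0.04 over all genes. It was 0.39 in basal CD49f-high, 0.34 in luminal Sca1-positive, 0.28 in total epithelial, 0.22 in basal CD49f-low and 0.10 in stromal cells. Fewer cells of a type and less RNA per cell cannot be told apart in these sorted bulk samples.

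Butyrophilin was the most regular of the set. In luminal Sca1-negative cells Btn1a1 was 9.36, 8.86 and 8.96 in parous samples and 7.92, 7.15 and 7.39 in nulliparous samples. Every parous sample stood above every nulliparous one by at least 0.94, and the difference was 1.57 (SE 0.19, adjusted p = 1.5e-05), a 2.97-fold higher level. In total epithelial cells it was 7.54, 6.98 and 7.0 in parous and 6.54, 6.30 and 6.19 in nulliparous samples, again without overlap. That difference was 0.83 (SE 0.19, adjusted p = 0.0338). The call was lost without either of nulliparous replicates 2 and 3, or without any single parous total epithelial sample.

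Btn1a1 in basal CD49f-high cells was 6.07 and 6.58 in parous and 5.55, 4.90 and 5.22 in nulliparous samples. It rose by 1.10 (SE 0.21, adjusted p = 0.001). The pan-luminal sums of these samples were 12.37 to 12.49 in parous and 11.64 to 12.45 in nulliparous mice. The part of luminal RNA in the Btn1a1 rise was not tested. In luminal Sca1-positive cells the Btn1a1 samples were tightly grouped, at 6.31, 6.25 and 6.19 against 5.51, 5.55 and 5.58. The difference of 0.70 (SE 0.19) did not pass (adjusted p = 0.0975), although the groups lay 0.61 apart. Basal CD49f-low cells differed by 0.45 (SE 0.19, adjusted p = 0.361) and stromal cells by 0.51 (SE 0.19, adjusted p = 0.328), both also without overlap. Thus the parous samples of Btn1a1 lay above the nulliparous ones in all 6 subpopulations. Only 2 of the 19937 genes did so, 0.01% of them, the other being the casein gene Csn1s2a. Outside luminal Sca1-negative and total epithelial cells, however, Btn1a1 group means were 5.22 to 6.33. Those levels lay near the median of all values, 6.0, and were not shown to be above background. The moderated F test of whether the 6 parity effects of Btn1a1 differed gave an adjusted p of 0.0672. It was called with the pool as random block (adjusted p = 0.0306), with array weights (0.0108), without dim probe sets (0.0445) and without nulliparous pool 1 (0.0217).

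Lactoferrin had the widest differences. In basal CD49f-high cells Ltf was 9.98 and 10.11 in parous samples and 6.58, 6.66 and 5.84 in nulliparous samples. The lowest parous sample stood 3.32 above the highest nulliparous one. The fitted difference was 3.69 (SE 0.50, adjusted p = 2.1e-05), a 12.9-fold higher level. When the 5 samples of this subpopulation were fitted alone, no gene of the 19937 was called, and the adjusted p of Ltf was 0.0686.

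Markers of other cell types were read beside this result. The pan-luminal sum in basal CD49f-high cells was 12.37 and 12.49 in parous samples and 12.45, 11.88 and 11.64 in nulliparous ones, and 0 of its 9 genes were called. The nulliparous sample with the pan-luminal sum of 12.45 had an Ltf level of 6.58, and the parous samples, near that sum, had 9.98 and 10.11. The 10 neutrophil markers summed to 8.32 to 8.42 in parous and 8.06 to 8.28 in nulliparous samples. Among them Camp, a granule peptide gene, rose by 0.57 (SE 0.15, adjusted p = 0.017) and the other 9 did not pass. Of 9 macrophage markers Cd68 rose by 1.20 (SE 0.29) and the other 8 did not pass, and their sums overlapped (9.80 to 10.19 parous, 8.86 to 9.83 nulliparous). Of 9 adipocyte markers the hormone gene Lep rose by 2.25 (SE 0.43) and the lipase gene Pnpla2 by 0.69 (SE 0.19), the other 7 did not pass, and the sums overlapped (9.46 to 10.35 and 9.34 to 9.82). Basal markers summed to 14.34 to 14.52 in parous and 13.90 to 14.22 in nulliparous samples, with 4 of 10 called higher. The part of these markers in the Ltf difference was not tested.

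In stromal cells Ltf rose by 1.90 (SE 0.45, adjusted p = 0.0398). The parous samples were 8.62, 9.69 and 7.58 and the nulliparous ones 6.71, 7.62 and 5.87, so the groups overlapped by 0.04. The pan-luminal sum in the same samples was 11.17, 11.94 and 10.12 in parous and 11.18, 12.54 and 10.11 in nulliparous replicates 1, 2 and 3. Within each history Ltf ranked as that sum did, and at near-equal sums of 11.17 and 11.18 the Ltf levels were 8.62 and 6.71. At sums of 10.12 and 10.11 they were 7.58 and 5.87. The part of luminal RNA in this difference was not tested. Without nulliparous replicate 3 of this subpopulation the call was lost, as it was without 5 other single samples.

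**Figure D3:**
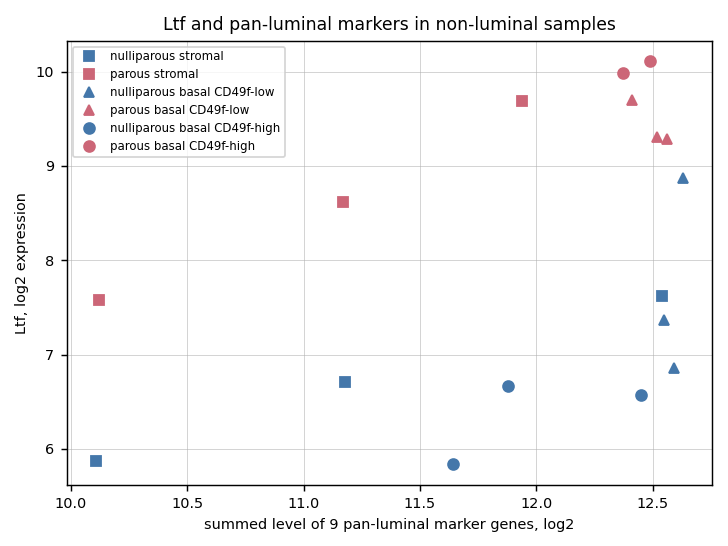
Log2 expression of Ltf (y axis) against the summed log2 level of 9 pan-luminal marker genes (x axis) in the 17 stromal and basal samples. Squares are stromal, triangles basal CD49f-low and circles basal CD49f-high samples, blue nulliparous and red parous. The parous basal CD49f-high samples lay at 9.98 and 10.11, and the nulliparous one with a marker sum of 12.45 at 6.58. The part of luminal RNA, itself richer in Ltf in parous luminal Sca1-negative samples (11.36 to 11.40 against 9.77 to 10.47), was not tested.

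In basal CD49f-low cells Ltf was 9.70, 9.29 and 9.31 in parous and 8.87, 7.37 and 6.86 in nulliparous samples. The difference of 1.73 (SE 0.45) narrowly missed the threshold (adjusted p = 0.053), with no overlap, and the pan-luminal sums were 12.41 to 12.56 and 12.55 to 12.63. The luminal progenitor sum was higher in the parous samples, 10.76 to 11.02 against 10.18 to 10.71, with 0 of its 7 genes called, and its part in the Ltf difference was not tested. In total epithelial cells Ltf was 10.51, 10.18 and 10.12 against 8.87, 8.28 and 8.66, a difference of 1.67 (SE 0.45, adjusted p = 0.112). Luminal Sca1-negative samples were nearly identical in parous mice, at 11.38, 11.36 and 11.40, and more spread in nulliparous mice, at 10.47, 9.77 and 10.21. Their difference of 1.23 (SE 0.45) had an adjusted p of 0.232 in the joint fit and 0.0105 when this subpopulation was fitted alone. The joint fit uses 1 spread per gene for all 12 groups. In luminal Sca1-positive cells Ltf was 8.01, 8.45 and 7.45 against 7.68, 7.36 and 6.61 (0.75, SE 0.45, adjusted p = 0.887), and the groups overlapped.

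No Wap difference with parity passed, and 2 of its 6 unadjusted limma p-values were under 0.05. Its parous luminal Sca1-negative samples were 6.88, 7.14 and 6.33 and the nulliparous ones 6.35, 6.21 and 6.04. Only the parous replicate 3 fell within the nulliparous range, and the difference of 0.58 (SE 0.15) had an adjusted p of 0.0535. In total epithelial cells Wap was 6.56, 6.24 and 6.01 in parous and 5.77, 5.76 and 5.81 in nulliparous samples, without overlap (0.49, SE 0.15, adjusted p = 0.21). In basal CD49f-low cells the difference was 0.24 (SE 0.15). In the other 3 subpopulations it was between 0.07 and 0.13 with overlapping samples.

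Xdh rose in one cell type and fell in another. In luminal Sca1-negative cells it was 8.91, 8.75 and 8.54 in parous and 7.65, 7.35 and 7.70 in nulliparous samples. It rose there by 1.17 (SE 0.22, adjusted p = 0.0032), and the groups lay 0.85 apart. In basal CD49f-high cells Xdh was 6.93 and 6.77 in parous and 7.02, 8.08 and 7.73 in nulliparous samples. It fell by 0.76 (SE 0.24, adjusted p = 0.0462) without overlap, and this call was lost in 20 of 35 fits that left out a single sample. Fibroblast markers, read because Xdh was highest in stroma, summed to 10.30 to 10.37 in the parous and 10.75 to 11.09 in the nulliparous samples of these cells. Of the 10, Fbln1 fell by 0.95 (SE 0.21), and their part in the Xdh difference was not tested. In basal CD49f-low cells the same sum was also lower in parous samples, 10.57 to 10.80 against 11.15 to 11.49, and Xdh was 7.43, 7.46 and 7.53 against 6.74, 7.33 and 7.56.

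The remaining subpopulations showed smaller Xdh differences. Luminal Sca1-positive samples were 6.34, 6.43 and 5.74 in parous and 5.30, 5.20 and 5.75 in nulliparous mice (0.75, SE 0.22, adjusted p = 0.166). The group means, 6.17 and 5.42, lay near the median of all values, 6.0, and were not shown to be above background. Total epithelial cells differed by 0.32 and basal CD49f-low cells by 0.26 (SE 0.22 each), and neither passed. Stromal cells, where the gene was highest, differed by 0.07 (SE 0.22), with an interval of 2 SE from -0.37 to 0.50. The F test over the 6 parity effects of Xdh was called (adjusted p = 0.00774), where 2.8% of all genes were, and Xdh was the only member called by it. Its effect in luminal Sca1-negative cells exceeded that in basal CD49f-high cells by 1.93 (SE 0.33, adjusted p = 8.4e-04), where 3.59% of all genes were called. Its effect in luminal Sca1-positive cells exceeded the same one by 1.51 (SE 0.33, adjusted p = 0.00858), where 2.9% were called.

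The same pairs of subpopulations separated the parity effects of Ltf in the opposite direction. The Ltf effect in luminal Sca1-negative cells minus that in basal CD49f-high cells was -2.46 (SE 0.67, adjusted p = 0.036). For luminal Sca1-positive minus basal CD49f-high cells the difference of the Ltf effects was -2.94 (SE 0.67, adjusted p = 0.013). The F test over the 6 parity effects of Ltf was not called (adjusted p = 0.101). It was called in 2 of 35 fits that left out a single sample. The call for luminal Sca1-negative minus basal CD49f-high cells was lost with array weights, without nulliparous pool 3 and without any of 8 single samples, among them both parous basal CD49f-high samples. The other 6 members were not called in any of the 15 pairwise differences of parity effects, in which 0.00502% to 3.59% of all genes were called. Of their 90 limma tests, 19 had an unadjusted p under 0.05.

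**Figure D4:**
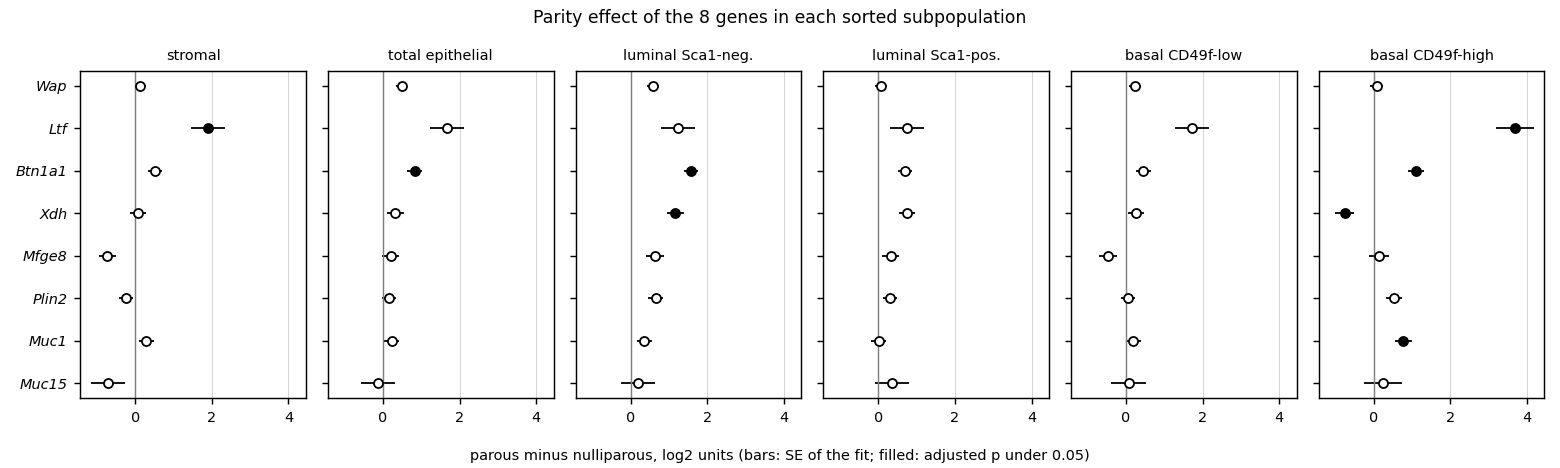
Difference between parous and nulliparous samples in log2 units (x axes) for the 8 genes (y axis) in each sorted subpopulation (panels). Points are the fitted differences, bars their SE, and filled points have a limma adjusted p under 0.05. Ltf lay farthest right in the stromal, total epithelial and both basal panels, up to 3.69 in basal CD49f-high cells, and Xdh was at 1.17 in luminal Sca1-negative and -0.76 in basal CD49f-high cells.

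Expressed as gaps, Ltf was higher in luminal Sca1-negative than in basal CD49f-high cells by 3.79 in nulliparous mice and by 1.33 in parous mice. Xdh changed the other way, from -0.04 in nulliparous to 1.89 in parous mice. The other 6 genes had gaps of 0.23 to 3.31 in nulliparous and 0.73 to 3.26 in parous mice. The median gap of the 9 pan-luminal markers between the same cells was 2.43 in nulliparous and 1.61 in parous mice.

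**Figure D5:**
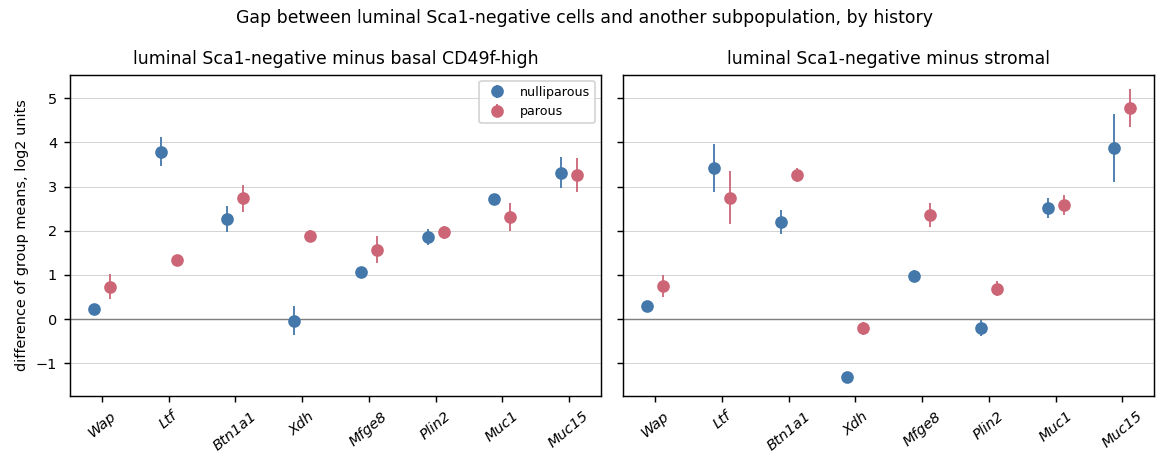
Difference between the mean of luminal Sca1-negative samples and that of basal CD49f-high (left) or stromal samples (right), in log2 units (y axes), for the 8 genes (x axes). Blue points are nulliparous and red points parous mice, and bars are the SE of the difference from the sample values. In the left panel Ltf moved from 3.79 to 1.33 and Xdh from -0.04 to 1.89.

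Samples of different subpopulations with the same history and replicate number deviated together more than others did, and the labels do not say whether such a number marks 1 pool of mice. The correlation of their deviations from the group means was over 0.1 in 43 of 85 pairs with the same number and in 0 of 170 with different numbers. As an alternative chosen after seeing the data, each number was therefore averaged over the 5 subpopulations other than basal CD49f-high, giving 3 parous and 3 nulliparous values per gene. Btn1a1 was then 7.03, 6.80 and 6.74 in parous and 6.22, 5.98 and 5.93 in nulliparous mice, without overlap. It rose by 0.81 (SE 0.10, limma adjusted p = 0.0153). Ltf was 9.64, 9.79 and 9.17 against 8.52, 8.08 and 7.64, and rose by 1.46 (SE 0.22, limma adjusted p = 0.0308). These were the 2 members called, against 0.592% of all genes. Xdh differed by 0.52 (SE 0.10, limma adjusted p = 0.0773) and Wap by 0.30 (SE 0.08, limma adjusted p = 0.136), neither passing. For 5 of the 8 genes these averages did not overlap, against 16.9% of all genes.

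The lipid droplet coat gene Plin2 was not called for parity in any subpopulation, and its unadjusted limma p was under 0.05 in 2 of 6. In luminal Sca1-negative cells it was 10.90, 10.87 and 10.48 in parous and 9.95, 10.18 and 10.19 in nulliparous samples, without overlap (0.65, SE 0.19, adjusted p = 0.107). In basal CD49f-high cells the parous samples were 8.82 and 8.77 and the nulliparous ones 7.95 to 8.49 (0.54, SE 0.21, adjusted p = 0.119). In the other subpopulations its differences were between -0.24 in stromal and 0.31 in luminal Sca1-positive cells, with overlapping samples.

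Mfge8 was not called for parity either, with an unadjusted limma p under 0.05 in 2 of 6 subpopulations. Its luminal Sca1-negative samples were 11.29, 11.36 and 11.19 in parous and 10.76, 10.49 and 10.66 in nulliparous mice, a difference of 0.64 (SE 0.23, adjusted p = 0.232) without overlap. In stromal cells it lay on the other side, at 8.78, 9.45 and 8.55 in parous and 9.85, 9.59 and 9.53 in nulliparous samples (-0.73, SE 0.23, adjusted p = 0.215), also without overlap. Endothelial markers were lower in the same parous stromal samples, summing to 10.42 to 10.68 against 11.14 to 11.79, with 1 of 10 called (Pecam1, -1.55, SE 0.36), and their part was not tested. Basal CD49f-low cells had a Mfge8 difference of -0.47 (SE 0.23). The F test of whether the 6 parity effects of Mfge8 differed had an adjusted p of 0.0697, and was called with the pool as random block (0.0281), array weights (0.0188) or no dim probe sets (0.0488).

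Of the mucins, Muc1 rose in basal CD49f-high cells, with 6.10 and 6.59 in parous and 5.72, 5.44 and 5.58 in nulliparous samples. The difference was 0.77 (SE 0.22, adjusted p = 0.0247). These levels lay near the median of all values, 6.0, and were not shown to be above background. The part of luminal RNA in this rise was not tested. The call was lost with array weights (adjusted p = 0.176), without nulliparous pool 3, and without any of parous replicate 3 and nulliparous replicates 2 and 3 of that subpopulation. In luminal Sca1-negative cells, where Muc1 was highest, it was 8.46, 9.03 and 8.47 in parous and 8.37, 8.35 and 8.18 in nulliparous samples (0.36, SE 0.20, adjusted p = 0.526). Muc15 was not called in any subpopulation, and none of its 6 unadjusted limma p-values was under 0.05. Its differences ran from -0.72 in stromal cells (SE 0.45) to 0.36 in luminal Sca1-positive cells (SE 0.45), and its luminal Sca1-negative samples, 9.75 to 9.99 in parous and 9.38 to 9.87 in nulliparous mice, overlapped. The 2 SE interval of that last difference, 0.19, ran from -0.71 to 1.09.

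Counted without a test, parous samples of 6 members did not overlap with the nulliparous ones in luminal Sca1-negative cells, all 6 higher, against 17.7% of all genes without overlap there and 7.31% with parous samples higher. In total epithelial cells 5 members did not overlap, all higher (15% of all genes, 7.24% higher), in basal CD49f-low cells 3, all higher (14.3%, 6.77% higher), and in luminal Sca1-positive cells 1, higher (12.9%, 6.19% higher). Among basal CD49f-high samples 4 members lay higher and Xdh lower (27.7% of all genes, 15.9% higher and 11.8% lower). In stromal cells Btn1a1 lay higher and Mfge8 lower (15.9%, with 9.59% higher and 6.33% lower). Basal markers moved with parity in luminal Sca1-negative cells: their sum was 10.76 to 10.95 in parous and 10.18 to 10.62 in nulliparous samples, and 3 of 10 were called higher, the keratin gene Krt5 (1.30, SE 0.18) and the contractile genes Cnn1 (1.21, SE 0.20) and Myh11 (0.93, SE 0.19). Their part in the Btn1a1 and Xdh differences was not tested. Of 7 luminal progenitor markers, Aldh1a3 (-1.22, SE 0.23) and Rspo1 (-1.06, SE 0.20) fell there.

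The other milk genes were read from lists compiled with earlier results of these data known. Of 10 measured caseins and other milk proteins, 4 rose in basal CD49f-high cells, 3 each in luminal Sca1-positive and basal CD49f-low cells, 2 each in luminal Sca1-negative and total epithelial cells and 0 in stromal cells, where 3 had an unadjusted limma p under 0.05. Of all 19937 genes, 800 were called higher in basal CD49f-high, 85 in luminal Sca1-positive and 57 in basal CD49f-low cells. The counts were 132 in luminal Sca1-negative, 33 in total epithelial and 21 in stromal cells. The caseins Csn1s1 and Csn2 rose in both basal subpopulations and in luminal Sca1-positive cells, by 5.24 (SE 0.95) and 4.05 (SE 0.76) in basal CD49f-high cells. The iron carrier Trf, the closest relative of lactoferrin on the list, rose by 1.52 (SE 0.47, adjusted p = 0.0369) in basal CD49f-high cells. The part of luminal RNA in these rises in basal cells was not tested. The milk lipase gene Cel rose beside Btn1a1 in luminal Sca1-negative cells (1.85, SE 0.24) and in total epithelial cells (1.27, SE 0.24). Its total epithelial means, 5.13 in nulliparous and 6.4 in parous mice, lay near the median of all values, 6.0. They were not shown to be above background.

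Partners of the fat globule did not move as a block. Of 10 membrane and lipid secretion partners, the immunoglobulin transporter Pigr rose in luminal Sca1-negative (1.06, SE 0.13) and total epithelial cells (0.82, SE 0.13). Its group means there, 4.66 to 6.25, lay near or below the median of all values, 6.0, and were not shown to be above background. The fatty acid carrier Fabp5 fell in total epithelial, basal CD49f-low and basal CD49f-high cells by 1.19, 1.31 and 1.40, and the secreted chaperone Clu fell in stromal cells by 2.35 (SE 0.43). Of 15 lipid synthesis genes, 1 was called in 1 subpopulation, the lipoprotein receptor Vldlr in luminal Sca1-negative cells (-1.04, SE 0.25). Of 13 measured genes of prolactin and STAT5 signalling, Id2, a transcriptional inhibitor needed for alveolar growth, rose in luminal Sca1-negative (1.42, SE 0.20) and basal CD49f-high cells (0.72, SE 0.23). The feedback inhibitor Socs2 rose in luminal Sca1-positive cells (1.15, SE 0.25). In basal CD49f-high cells the feedback inhibitors Cish (0.70, SE 0.20) and Socs3 (0.74, SE 0.22) rose and the glucocorticoid receptor gene Nr3c1 fell by 0.65 (SE 0.16).

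Relatives of the 8 genes, by protein family or by molybdenum enzyme biology, were read in the same way. Over all genes, the share called for parity ran from 0.446% in total epithelial to 9.06% in basal CD49f-high cells. None of the 5 measured butyrophilins, the 7 relatives of Xdh in molybdenum enzyme biology or the other 4 perilipins was called in any of the 6 subpopulations. Not all of those 7 are of the protein family of Xdh. Unadjusted limma p-values under 0.05 numbered 4 of 30, 2 of 42 and 1 of 24 for these lists. Of 7 discoidin domain relatives of Mfge8, the coagulation factor gene F8 fell in stromal cells by 0.82 (SE 0.18), and no other was called in any subpopulation. Among 9 genes with whey acidic protein domains, the protease inhibitor Slpi fell in stromal cells by 1.43 (SE 0.19) and Wfikkn2 rose in basal CD49f-high cells by 1.69 (SE 0.24). Among 11 other mucin-type genes, Muc3 rose in luminal Sca1-positive cells (0.60, SE 0.13) and the endothelial sialomucin Emcn fell in basal CD49f-high cells by 2.36 (SE 0.74). Between the luminal fractions, Muc4 and Muc20 were lower in Sca1-positive cells by 1.99 (SE 0.15) and 0.86 (SE 0.12), like Muc1. The summed level of the 11 genes went the other way. It was 12.37 to 12.59 in luminal Sca1-positive and 11.94 to 12.27 in luminal Sca1-negative samples.

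The genes most like each member were found by Pearson's r over the 12 group means, with no test, since the means share samples and a common cell sorting scheme. Muc1 was most like the mucin gene Muc4 (r = 0.987), the alveolar transcription factor gene Elf5 (0.985) and the carbonic anhydrase gene Car2 (0.984). Plin2 was most like Nav3 (0.975), Enpp3 (0.968) and Galnt15 (0.949). Btn1a1 was most like the chloride channel gene Clic6 (0.971), Cel (0.951) and the proton pump subunit gene Atp6v1b1 (0.942). Wap shared 1 of these, with Pigr (0.951), Cel (0.947) and Spns3 (0.944) as its nearest genes. Ltf was nearest to Trf (0.933), Csn1s1 (0.901) and Gps2 (0.889). Xdh was nearest to the chemokine-binding receptor gene Ccrl2 (0.952), the lipopolysaccharide-binding protein gene Lbp (0.951) and Smpdl3a (0.947). Mfge8 was nearest to Tc2n (0.951), Srgap3 (0.938) and the protease gene Ctsc (0.934), and Muc15 to Gpd2 (0.949), Lurap1l (0.942) and Nus1 (0.938).

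Among the 28 pairs of members, r over the 6 subpopulation means ran from 0.06 to 0.99, with a median of 0.84. Btn1a1 and Muc1 had the highest value (0.99) and Xdh and Muc15 the lowest (0.06). Xdh went instead with Plin2 (0.83), the other member that was high in stroma. Within groups, after each group's mean was removed from its samples, the values were lower, from -0.27 for Ltf and Xdh to 0.67 for Ltf and Mfge8, with a median of 0.16 over the 28 pairs (n = 35 samples). Ltf and Muc15 had 0.63 there, and in stromal cells both were highest in replicate 2 and lowest in replicate 3 of each history, as the pan-luminal sum was. Points in these correlations share libraries, so they describe these samples and carry no p.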

How the data were processed

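Expression was measured on 1-colour Affymetrix arrays in 35 samples, grouped by their labels into 12 groups. The authors deposited log2 values, 1 per probe set and sample, with a range of 1.74 to 13.28. The column medians, 5.813 to 5.924, are nearly equal. Per the submitters' processing notes affy was used. A version, a normalization method and a genome build were not given in the sources used here. Array number and amplified RNA limit precision, and no background level is given per probe set.

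Of 34760 probe sets, 21640 had 1 gene symbol in the supplied annotation, 1321 several and 11799 none, and only the first were used. For 954 genes with several probe sets the one with the highest mean was taken, which left 19937 genes. Each member had 1 probe set. limma 3.58.1 in R 4.3.3 fitted 12 group means with eBayes (trend = TRUE), and p-values were adjusted by Benjamini-Hochberg over all genes, with a threshold of 0.05. SE are those of the moderated fit. The fitting was tested on simulated data. Summed marker levels are log2 of the sum of linear values.

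The members and lists were chosen with earlier results of these data known. Named genes are the 8 members, the 3 most similar genes to each among genes whose highest group mean exceeds 6.0 (the median of all values), and up to 4 called genes per direction of each list. Parous and nulliparous samples with 1 replicate number in 17 comparisons had correlations of -0.05 to 0.225, and 4 exceeded 0.1. With different numbers, 34 comparisons had correlations of -0.176 to 0.051, and 0 exceeded 0.1. The labels do not say what a number shares between histories, and this was not tested. The main fit did not use numbers to pair samples. Alternatives were array weights, no trend, quantile normalization, no dim probe sets, averaged probe sets, pool and replicate blocks, each subpopulation alone, and samples or nulliparous pools left out.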

Additional observations from a re-analysis of the deposited data

Results flagged for a closer look

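The parity effect of Xdh differed among the 6 subpopulations by the moderated F test (adjusted p = 0.00774). It was larger in luminal Sca1-negative than in basal CD49f-high cells by 1.93 log2 units (SE 0.33), and larger in luminal Sca1-positive than in basal CD49f-high cells by 1.51 (SE 0.33). The parity effect of Ltf in luminal Sca1-negative cells minus that in basal CD49f-high cells was -2.46 (SE 0.67). In luminal Sca1-positive minus basal CD49f-high cells it was -2.94 (SE 0.67). These 5 results stood out because the difference between the effects was itself called. The F test over the 6 parity effects of Ltf was not called (adjusted p = 0.101). Xdh in luminal Sca1-positive cells lay near the median of all values, 6.0, and was not shown to be above background. All 4 pairwise results involve basal CD49f-high cells, where 2 parous samples were available.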

How the results depend on the processing

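The count of members called for parity changed with the processing. In stromal cells (1 called) it was 0 without nulliparous pool 1, without nulliparous pool 3 and in the subpopulation alone, and 0 to 1 with single samples left out. In total epithelial cells (1) it was 2 with array weights, 2 with the replicate block and 0 without nulliparous pool 3 (0 to 2 with single samples left out). In luminal Sca1-negative cells (2) it was 4 with array weights and 4 alone. In luminal Sca1-positive cells (0) it was 2 with array weights and 1 with the replicate block or alone (0 to 1). In basal CD49f-low cells (0) it was 1 with array weights, without dim probe sets, with the pool as random block, with the replicate block and without nulliparous pool 1 (0 to 1). In basal CD49f-high cells (4) it was 2 with array weights, 2 without nulliparous pool 3 and 0 alone (2 to 4). The F test called 1 member, 3 with array weights, without dim probe sets or with the pool as random block, 4 with the replicate block (Ltf, Btn1a1, Xdh and Mfge8) and 2 without nulliparous pool 1 (1 to 2). The replicate block joins the histories by a number whose meaning the labels do not give. It moved the F test's count of genes from 558 to 936. Genes called ranged over alternatives from 81 to 614 in luminal Sca1-negative, 0 to 2342 in basal CD49f-high, 62 to 544 in basal CD49f-low, 29 to 231 in total epithelial, 18 to 159 in stromal and 67 to 194 in luminal Sca1-positive cells, and from 268 to 1134 between the basal fractions. Btn1a1 (1.40 to 1.79) and Xdh (1.06 to 1.27) stayed called in luminal Sca1-negative cells under every alternative run. Ltf (3.43 to 3.84) and Btn1a1 (0.85 to 1.36) in basal CD49f-high cells lost their calls only when that subpopulation was fitted alone. Over 320 results of single members, 13921 of 14160 values kept their side of the threshold and, where not called, stayed within 1 SE. A call was lost by 108 and gained by 99, 32 that were not called moved by 1 SE or more, and none that was called changed sign. The cause of these shifts was not tested.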
